A study of Oryctolagus cuniculus with 12 samples.

Results

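The genes of the bone morphogenetic protein (BMP) pathway followed here are the ligands BMP2, BMP4, BMP6, and BMP7, the secreted antagonists GREM1 and NOG, and the target genes ID1, ID2, and ID3. They were chosen by name. Each of the 9 names matched 1 row of the 20566 gene rows, and all 9 rows passed the filter on low counts, as did 14835 rows in all. RNA was measured by sequencing in conjunctiva of female Japanese white rabbits aged 12 to 14 weeks, with 12 libraries in all. Left eyes, which were not operated on, gave the 3 control libraries. Right eyes were operated on by trabeculectomy (TL), in which aqueous humor is drained under the conjunctiva, and conjunctiva with the filtration bleb gave 3 TL3h libraries after 3 hours, 3 TL3d libraries after 3 days, and 3 TL14d libraries after 14 days. Mitomycin C, a DNA crosslinker that limits scarring, was applied during the operation, and the study's methods add an injection of the glucocorticoid betamethasone and an antibiotic ointment at its end, so the operation and these drugs cannot be told apart. Which control eye belonged to which operated eye is not given in the labels, and the age comes from the study's methods.

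BMPs are secreted dimers of the TGF-beta superfamily. They bind type 1 and type 2 serine/threonine kinase receptors, which phosphorylate SMAD1, SMAD5, and SMAD9. These SMADs enter the nucleus with SMAD4 and switch on ID1, ID2, and ID3, whose proteins lack a DNA-binding region and hold back basic helix-loop-helix transcription factors by pairing with their E protein partners. GREM1 and NOG bind BMPs outside the cell and keep them from their receptors. In fibroblasts and epithelia, BMP signals are known to oppose several effects of TGF-beta, and BMP7 is the member best known for this.

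The total count per library lay between 27111348 and 38591425. Levels are given as CPM, counts in each 1000000 of the library size, with library sizes scaled by TMM, a method that aligns the bulk of the genes between libraries, and a count of 3, the most that a count of 0 allows, was worth 0.0712 to 0.124 CPM. These limits cover counting error only. TMM gave the TL3h libraries factors of 0.77 to 0.78 and the rest 1.03 to 1.13. TL14d replicate 1 stood apart from its group, with a mean correlation across genes of 0.914 with the other TL14d libraries and of 0.969 with the control libraries, while the other libraries ranged from 0.927 to 0.978 within their groups. Control replicate 3, in which BMP4 was far above the other control libraries, was at 0.946. For the tests, edgeR fitted 1 quasi-likelihood model to the 12 libraries, and q is its Benjamini-Hochberg adjusted p-value over the 14835 genes, with a threshold of 0.05. The 3 comparisons with the control group share the same control libraries. Nothing in the labels says more of the replicates than their number, so the p-values measure the spread between these libraries.

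At 3 hours, BMP2, ID1, and ID2 rose and BMP6 and BMP7 fell. These 5 of 9 genes were past the threshold, 3 higher and 2 lower, while 45.4% of all genes tested were past it (23.2% higher and 22.2% lower), so the share was near that of the background. Of the genes past the threshold at 3 hours 51% were higher with TMM and 25% with library size only, and between 3 hours and 3 days 49.2% and 80.5%. At 3 days, ID1 and ID2 were still higher and BMP7 was lower, which is 3 of 9 genes (2 higher and 1 lower) against 17.6% of all genes (10.6% higher and the rest lower). At 14 days, no gene of the 9 was past the threshold of the edgeR test, and neither was any other gene (0% of all genes tested). At that time 3 of the 9 genes (BMP2, GREM1, and ID1) had an unadjusted p-value under 0.05, against 10.4% of all genes, and the DESeq2 test called 2 of the 9 (GREM1 and ID1), against 2.49% of the genes to which it gave an adjusted p-value. When the 3 time points were tested jointly, 7 of the 9 genes were past the threshold, all but NOG and ID3, against 52.4% of all genes. Groups that did not overlap with the control group were found for 6 of the 9 at 3 hours (4 higher and 2 lower), against 57.3% of all genes (28.9% higher and 28.3% lower), for 5 at 3 days (3 higher and 2 lower), against 45.5% (23.8% higher and 21.7% lower), and for 2 at 14 days, both higher, against 11.1% (6.03% higher and 5.11% lower). The median log2 fold change was 0.98 (3 hours), 0.71 (3 days), and 0.51 (14 days) for the 9 genes, and 0.02, -0.00182, and 0.02 for all genes tested.

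**Figure D1:**
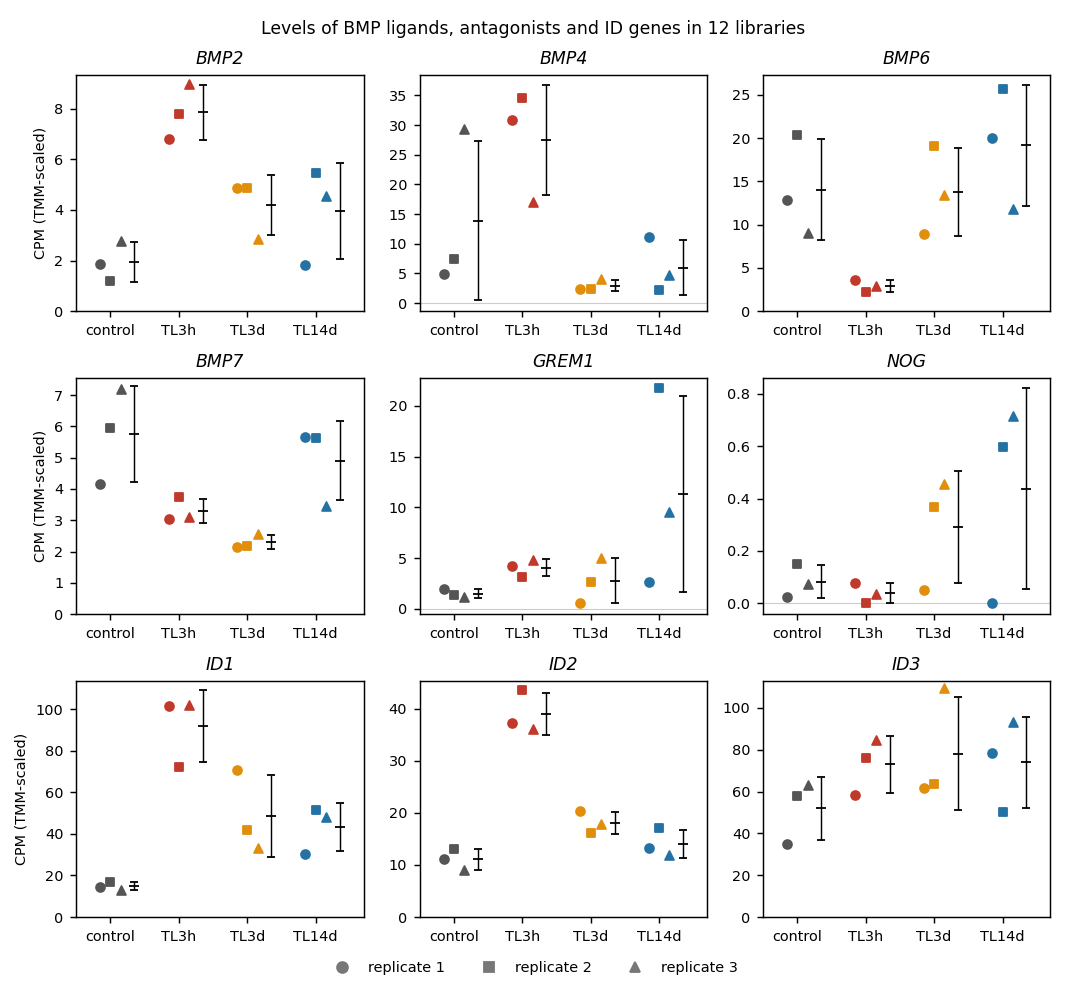
Level of each of the 9 genes in CPM (linear axes from 0) in the control, TL3h, TL3d, and TL14d groups. Each point is 1 library, shaped by its replicate number, and the bar beside it is the mean with its SD (n = 3). ID1 and ID2 are highest in the TL3h libraries, BMP6 is lowest there, and GREM1 and NOG have their highest libraries at 14 days.

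BMP2 (gene ID 100009349), a ligand that signals through type 1 BMP receptors, lies at 29448574 to 29450293 of chromosome 4 in the rabbit build OryCun2.0, which all positions below use. It was at 1.88, 1.201, and 2.76 CPM in control replicates 1, 2, and 3 and at 6.80, 7.80, and 8.96 CPM in the TL3h libraries. All TL3h libraries lay above all control libraries, a 4.03-fold increase (log2 fold change 2.01, standard error 0.44, q = 0.00443), and the call held in each of the 12 fits that left out 1 library (highest q 0.0207). The TL3d libraries were at 4.87, 4.87, and 2.85 CPM, still above all control libraries, but the log2 fold change of 1.11 (standard error 0.43) was not past the threshold (q = 0.0972). Leaving out TL14d replicate 1 gave a q of 0.0396 (0.0178 to 0.254 across the alternatives). At 14 days, replicate 1 was at 1.82 CPM, within the control range, while replicates 2 and 3 were at 5.46 and 4.56 CPM, and the log2 fold change was 1.02 (standard error 0.43, q = 0.466). A second row, LOC108175367, is annotated as BMP2-like and lies on the same chromosome from 13207823 to 13209750. It rose from 0.277 ± 0.102 to 1.27 ± 0.138 CPM at 3 hours (SD, n = 3 each, log2 fold change 2.18, standard error 0.54, q = 0.00827), and reads that fit both rows would be split between them. With both rows summed, the log2 fold change at 3 hours was 2.04 (q = 0.00411).

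BMP4, a ligand that is made largely by mesenchymal cells in many tissues, lies on chromosome 17 from 72720947 to 72723098 (gene ID 100009569). The control libraries differed widely, with 4.89, 7.48, and 29.3 CPM in replicates 1, 2, and 3. The TL3h libraries were at 30.9, 34.5, and 17.0 CPM, and overlapped with control replicate 3 alone. The log2 fold change at 3 hours was 0.98 (standard error 0.70, q = 0.288), and without control replicate 3 it was 2.10 (q = 0.0246, with 0.00603 to 0.578 across the alternatives). At 3 days the level was 2.40, 2.46, and 4.01 CPM, below every control library. The log2 fold change from the control group was -2.23 (its standard error 0.74) and not past the threshold (q = 0.0612), while q was 0.0378 without TL14d replicate 1, 0.0470 without TL14d replicate 2, and 0.00857 with DESeq2 (0.00857 to 0.222 across the alternatives). From 3 hours to 3 days BMP4 fell 9.27-fold, and the libraries did not overlap (log2 difference -3.21, standard error 0.76, q = 0.00846). This call held in all 12 fits that left out 1 library, with a highest q of 0.0383. The TL14d libraries were at 11.1, 2.23, and 4.72 CPM, with replicate 1 inside the control range and replicates 2 and 3 below it (log2 fold change from the control group -1.21, standard error 0.71, q = 0.582).

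The level of BMP4 and that of fibroblast markers both had their highest group mean at 3 hours and their highest control library in replicate 3. The summed level of the 5 fibroblast markers COL1A2, COL3A1, PDGFRA, DCN, and LUM, all of which were in the table and none of which was at 0, was 9746 and 27190 CPM in control replicates 1 and 2 and 57680 CPM in control replicate 3. It was 80350 to 95820 CPM in the TL3h libraries, 987 to 45150 CPM in the TL3d libraries, and 7979 to 40130 CPM in the TL14d libraries. TL3d replicate 3 had 45150 CPM of these markers with 4.01 CPM of BMP4, below the level of control replicate 1, and TL14d replicate 3 had 40130 CPM of them with 4.72 CPM of BMP4 where TL14d replicate 1 had 20650 CPM with 11.1 CPM. The sum is mostly COL1A2 and COL3A1. Of its 5 markers, DCN fell from 3 hours to 3 days as BMP4 did (log2 difference -3.28, q = 0.0350), with group means of 4708, 12630, 1298, and 1547 CPM in the control, TL3h, TL3d, and TL14d groups, and the other 4 markers had log2 differences from -2.24 (COL3A1) to -0.89 (LUM) and were not past the threshold. Their part in the result was not tested. In bulk tissue, fewer cells of a type and less RNA per cell cannot be told apart.

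BMP6, a ligand that uses the same receptors and is also known for its role in iron balance, lies on chromosome 12 from 1470751 to 1647032 (gene ID 100354948). It was at 12.8, 20.4, and 8.98 CPM in the control libraries and at 3.65, 2.24, and 2.93 CPM in the TL3h libraries. BMP6 was thus 4.77-fold lower at 3 hours, with no overlap (log2 fold change -2.26, standard error 0.42, q = 0.00168, highest q 0.00846 without 1 library). At 3 days it was back in the control range, at 8.87, 19.1, and 13.4 CPM. The log2 fold change from the control group was then -0.03, with a 95% interval from -0.90 to 0.84. The rise of 4.67-fold from 3 hours to 3 days was past the threshold (log2 difference 2.22, standard error 0.42, q = 0.00233). The TL14d libraries were at 20.0, 25.7, and 11.8 CPM, and overlapped with the control libraries (log2 fold change 0.45, standard error 0.39, q = 0.717).

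BMP7 is split in this genome build. The row of that name (gene ID 100337873) covers 538 bases of unplaced sequence, from 434579792 to 434580329 on the joined sequence that the authors' table uses for unplaced pieces. The further rows LOC103347033 (457773336 to 457797219) and LOC100008826 (463879207 to 463882537) are also annotated as bone morphogenetic protein 7, and lie on other pieces. The row BMP7 was at 4.15, 5.95, and 7.20 CPM in the control libraries, at 3.04, 3.73, and 3.11 CPM at 3 hours, and at 2.15, 2.19, and 2.56 CPM at 3 days. All TL3h and TL3d libraries lay below all control libraries. The TL14d libraries were at 5.65, 5.62, and 3.45 CPM, mostly within the control range.

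The 3 rows annotated as BMP7 fell by similar amounts at 3 days and differed in the test at 3 hours. At 3 days, the log2 fold change was -1.33 for BMP7 (q = 0.0168), -1.45 for LOC103347033 (q = 0.0166), and -1.40 for LOC100008826 (q = 0.0168). With the 3 rows summed it was -1.40 (q = 0.0132), but for BMP7 alone q was 0.0576 without control replicate 2, 0.0631 without TL3d replicate 1, and 0.0663 without TL3d replicate 2 (6.66e-05 to 0.0663 across the alternatives). These libraries also ended the calls of the other rows, with a highest q of 0.0627 for LOC103347033 and 0.067 for LOC100008826. At 3 hours, the log2 fold change was -0.81 for BMP7 (standard error 0.27, q = 0.0345), -0.34 for LOC103347033 (q = 0.388), and -0.56 for LOC100008826 (q = 0.14). The summed rows gave -0.54 at 3 hours (q = 0.109), so the call for BMP7 at 3 hours rested on the shortest row. That call was also lost with the replicate number as a block (q = 0.0528), with only the 6 libraries compared (q = 0.0553), and without control replicate 2 (q = 0.0863), control replicate 3 (q = 0.0894), TL3h replicate 1 (q = 0.0776), TL3h replicate 3 (q = 0.0770), or TL3d replicate 2 (q = 0.0505), of a range from 0.00267 to 0.109 across the alternatives. From 3 days to 14 days the summed rows rose, by 1.24 on the log2 scale (q = 0.0437), where the row BMP7 alone gave 1.09 (standard error 0.28, q = 0.0696). LOC100008826 alone gave 1.32 (q = 0.0496), a call that was lost in 11 of the 12 fits without 1 library, and the summed rows were not fitted without single libraries. From 3 hours to 3 days LOC103347033 (log2 difference -1.11, q = 0.0153) and LOC100008826 (-0.84, q = 0.0437) fell, with the calls lost in 2 and 8 of the 12 fits without 1 library, while BMP7 gave -0.52 (q = 0.164) and the summed rows -0.86 (q = 0.0251).

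**Figure D2:**
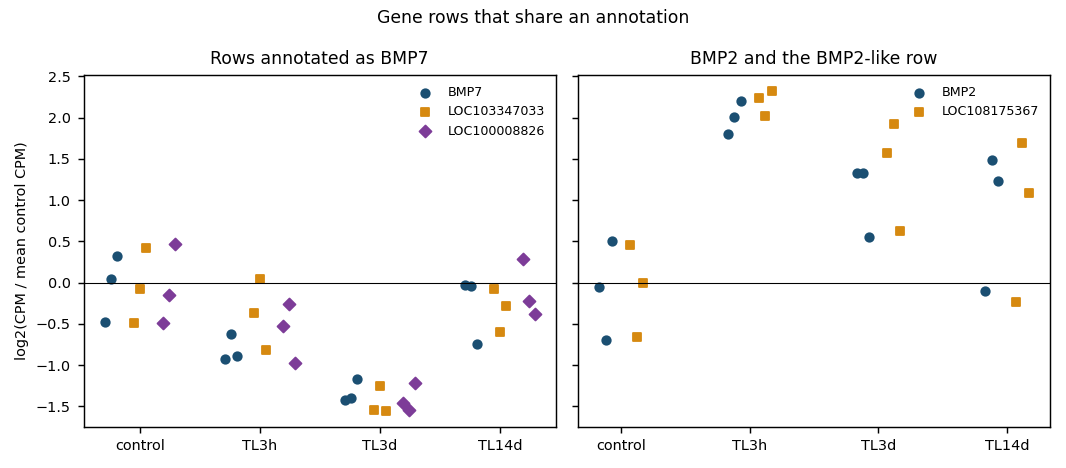
log2 of the CPM of each library over the mean control CPM, for the 3 rows annotated as BMP7 (left) and for BMP2 and the BMP2-like row (right), with 1 point per library. The 3 BMP7 rows lie together near -1.4 at 3 days, and both BMP2 rows lie near 2 at 3 hours.

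GREM1, which encodes gremlin 1, an antagonist of BMP2, BMP4, and BMP7, lies on chromosome 17 from 37878087 to 37889981 (gene ID 100342066). It was at 1.97, 1.40, and 1.18 CPM in the control libraries and at 4.23, 3.15, and 4.79 CPM at 3 hours. The TL3h libraries lay above all control libraries, but the log2 fold change of 1.42 (standard error 0.78) was not past the threshold in the fit of all libraries (q = 0.166). With only the 6 libraries compared, q was 0.0138 (0.0138 to 0.349 across the alternatives). The TL3d libraries spread from 0.625 CPM in replicate 1 to 5.06 CPM in replicate 3, around the control range (log2 fold change 0.86, standard error 0.77, q = 0.444). At 14 days GREM1 was at 2.62 CPM in replicate 1, 21.7 CPM in replicate 2, and 9.57 CPM in replicate 3, all above the control libraries. The log2 fold change was 2.90 (standard error 0.81, 95% interval 1.09 to 4.70, q = 0.346), the largest of the 9 genes at that time. Without TL14d replicate 1, it was 3.36 (q = 0.0345, with 0.0114 to 0.978 across the alternatives), and with DESeq2 q was 0.0114.

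NOG, which encodes the antagonist noggin, lies on chromosome 19 from 31415132 to 31416299 (gene ID 100358460) and was near the limit of detection. Its counts were 1, 6, and 3 in the control libraries and 2, 0, and 1 in the TL3h libraries. They were 2, 12, and 16 at 3 days and 0, 22, and 22 at 14 days, so that the first replicate of each of these groups lay at or under 3 counts and the others above the control libraries. No difference from the control group was past the threshold (q = 0.328 at 3 days and 0.543 at 14 days), and the 95% interval of the log2 fold change at 14 days ran from -0.39 to 5.11.

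ID1, whose protein is the inhibitor of DNA binding that BMP signals are best known to induce, lies on chromosome 4 from 7598249 to 7599434 (gene ID 100347305). It was at 14.6, 16.9, and 13.0 CPM in the control libraries and at 101, 71.98, and 102 CPM at 3 hours. ID1 thus rose 6.19-fold at 3 hours (log2 fold change 2.63, standard error 0.31, q = 0.000161), the largest fold change of the 9 genes at that time. It was at 70.7, 42.1, and 33.0 CPM at 3 days, a 3.28-fold increase over the control group (log2 fold change 1.71, standard error 0.30, q = 0.0114). Both calls held in every fit that left out 1 library, with a highest q of 0.0014 at 3 hours and 0.0469 at 3 days. At 14 days it was at 30.4, 51.6, and 48.2 CPM, and every operated library at every time lay above every control library. The log2 fold change at 14 days was 1.55 (standard error 0.30, 95% interval 0.88 to 2.21, q = 0.346), with q at 0.0168 when TL14d replicate 1 was left out and at 0.000671 by DESeq2 (0.000671 to 0.978 across the alternatives). ID1 and GREM1 were the 2 genes of the 9 whose groups did not overlap at 14 days.

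ID2, a second inhibitor of DNA binding, lies on unplaced sequence from 397737834 to 397739124 (gene ID 100350879). It was at 11.1, 13.0, and 9.06 CPM in the control libraries and at 37.3, 43.6, and 36.04 CPM at 3 hours. This 3.52-fold increase had the smallest q of the 9 genes (log2 fold change 1.82, standard error 0.19, q = 9.06e-05). At 3 days the libraries were at 20.3, 16.1, and 17.9 CPM, still above all control libraries, a 1.64-fold increase (log2 fold change 0.71, standard error 0.19, q = 0.0307). That call was lost when any of the 6 libraries compared was left out, with q at 0.0899, 0.0573, and 0.0772 without control replicates 1, 2, and 3 and at 0.105, 0.0677, and 0.0529 without TL3d replicates 1, 2, and 3 (0.00437 to 0.105 across the alternatives). At 14 days ID2 was at 13.3, 17.0, and 11.8 CPM, which overlapped with the control libraries (log2 fold change 0.34, standard error 0.19, q = 0.56).

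ID3, the third of these inhibitors, lies on chromosome 13 from 129667251 to 129668860 (gene ID 100346120) and was the most abundant of the 9 genes in the control libraries, at 34.9, 58.0, and 63.0 CPM. The TL3h libraries were at 58.2, 76.0, and 84.9 CPM, the TL3d libraries at 61.5, 63.7, and 109 CPM, and the TL14d libraries at 78.5, 50.2, and 93.3 CPM. The groups overlapped at each time. The log2 fold changes were 0.49 (3 hours), 0.59 (3 days), and 0.51 (14 days, standard error 0.32 each), with q values of 0.234, 0.202, and 0.595. The 95% interval at 3 hours, from -0.21 to 1.19, lay below that of ID1 (1.94 to 3.32) and that of ID2 (1.39 to 2.24), though a difference between these genes was not tested. With library size only in place of TMM, the log2 fold change of ID3 at 3 hours was -0.000541.

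**Figure D3:**
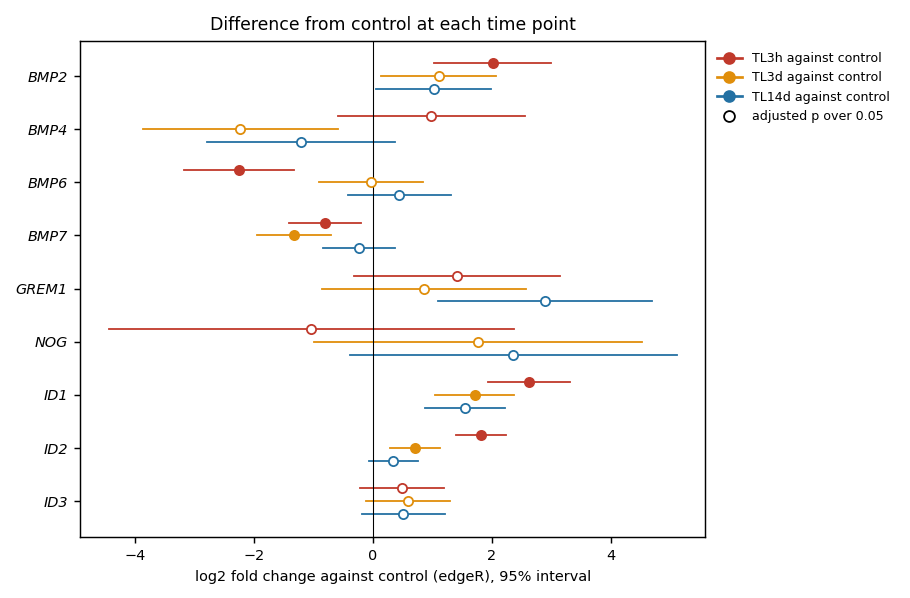
log2 fold change of each gene against the control group with its 95% interval from the edgeR fit, at each time after surgery. Filled points had q of at most 0.05. The 5 filled points at 3 hours are BMP2, BMP6, BMP7, ID1, and ID2, and no point is filled at 14 days, where the intervals of BMP2, GREM1, and ID1 lay above 0.

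Without control replicate 3 and TL14d replicate 1, a choice made after the data were seen, 5 of the 9 genes were past the threshold at 3 hours, against 50.3% of all genes in that fit, 3 at 3 days, against 25.6%, and 2 at 14 days, against 6.64%. The genes differed in part from those of the full fit. BMP4 was past it at 3 hours (log2 fold change 2.10, q = 0.00603) and BMP7 was not (q = 0.0808). BMP2 was past it at 3 days (log2 fold change 1.43, q = 0.0178) and 14 days (1.69, q = 0.0351, with 0.0351 to 0.978 across the alternatives), and ID2 at 3 days was not (q = 0.0647). At 14 days ID1 was the other gene past the threshold (1.65, q = 0.0322).

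Between 3 hours and 3 days, 4 of the 9 genes differed, against 37.3% of all genes tested, and the groups of 6 did not overlap (1 higher and 5 lower), against 54.7% (26.2% higher and 28.5% lower). BMP4, ID1, and ID2 were lower at 3 days than at 3 hours (19.0% of all genes) and BMP6 was higher (18.4%). ID2 was 2.15-fold lower (log2 difference -1.11, standard error 0.19, q = 0.0014), and this held in every fit that left out 1 library (highest q 0.00928). ID1 was 1.89-fold lower (log2 difference -0.92, standard error 0.29, q = 0.033). The call for ID1 was lost without TL3h replicate 1 (q = 0.0990), TL3h replicate 3 (q = 0.104), TL3d replicate 2 (q = 0.112), or TL3d replicate 3 (q = 0.0979), and with library size only the log2 difference was -0.44 (q = 0.275, with 0.00716 to 0.275 across the alternatives). Between 3 days and 14 days, 0 of the 9 genes were past the threshold by edgeR, against 2.24% of all genes (0.647% higher and 1.59% lower), and DESeq2 called 1, BMP7 (q = 0.00349), against 12.5% of all genes. Unadjusted p-values under 0.05 were found for 2 of the 9 genes, BMP7 and GREM1, against 22.6% of all genes. BMP7 was also the 1 gene of the 9 whose groups did not overlap, against 27.4% (13.4% higher and 14.0% lower).

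When libraries were scaled to their size alone, the genes tested had a median log2 fold change of -0.47 at 3 hours, against 0.02 with TMM. On that scale ID1 was at 2.13, BMP2 at 1.53, ID2 at 1.31, BMP7 at -1.30, and BMP6 at -2.77, and the same 5 genes were past the threshold. In the comparison of 3 days with 3 hours, where library size alone moved the median of all genes from -0.05 to 0.43, the call for ID1 was lost, as given above.

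Levels were compared between genes per transcript length, as FPKM, the authors' counts scaled for transcript length and for the number of mapped fragments, which carry no TMM factor and are set side by side here only within a group. In the control group, ID3 was highest with 58.5 ± 15.9 FPKM (SD, n = 3 here and below), above all other genes without overlap. ID1 (16.03 ± 2.61 FPKM), BMP7 (13.3 ± 3.18), ID2 (12.2 ± 2.57), BMP4 (11.4 ± 10.6), and BMP6 (6.04 ± 2.65) followed, and each of these overlapped with its neighbour. BMP2 (1.11 ± 0.406), GREM1 (0.682 ± 0.199), and NOG (0.0739 ± 0.0581) were lowest. At 3 hours ID1 (71.5 ± 14.7 FPKM) and ID3 (59.5 ± 11.7) overlapped, and ID2 (30.9 ± 2.55) lay below both and above all ligands.

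Among the ligands, BMP4 was first at 3 hours with 16.5 ± 5.24 FPKM, above BMP7 (5.50 ± 0.533), BMP2 (3.26 ± 0.498), and BMP6 (0.905 ± 0.225), with no overlap between neighbours in the order of the 4 ligands. This order holds for the row BMP7 alone, since LOC100008826, also annotated as BMP7, was at 11.3 ± 2.51 FPKM at 3 hours and overlapped with BMP4, and LOC103347033 was at 7.95 ± 2.14 FPKM. At 3 days the order was another one, with BMP6 (5.93 ± 2.26 FPKM) and BMP7 (5.37 ± 0.398) overlapping and above BMP4 (2.48 ± 0.698) and BMP2 (2.44 ± 0.727), which also overlapped. BMP4 made up 51.1% to 67.3% of the summed FPKM of the 4 ligands at 3 hours and 11.4% to 20.2% at 3 days. In the control libraries it made up 20.2%, 21.2%, and 52.6%. At 14 days BMP7 (11.5 ± 3.06), BMP6 (8.27 ± 3.10), GREM1 (5.13 ± 4.44), BMP4 (5.06 ± 3.85), and BMP2 (2.29 ± 1.11) overlapped from neighbour to neighbour. GREM1 was above NOG in each group without overlap except at 3 days. The level of BMP7 is that of its 538-base row, and the other rows annotated as BMP7 were at 13.9 ± 3.93 and 23.1 ± 7.18 FPKM in the control group.

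**Figure D4:**
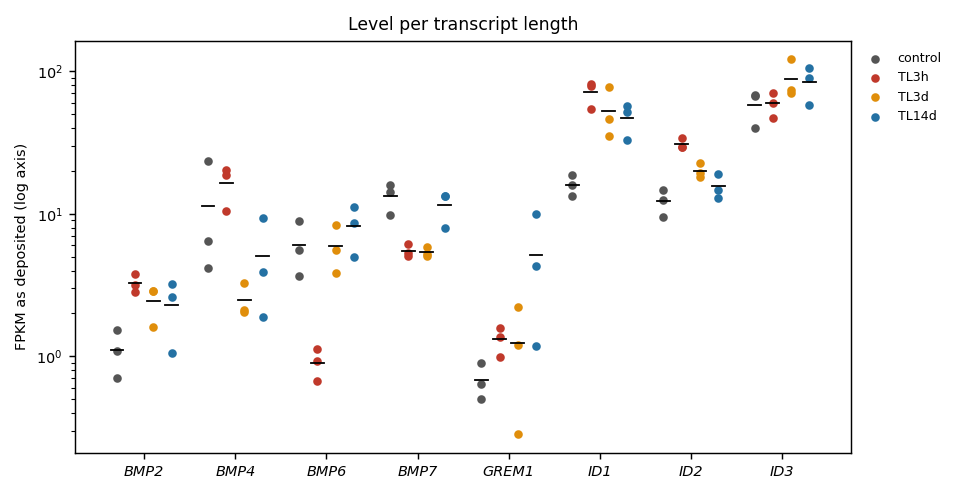
FPKM as deposited (log axis) for 8 of the 9 genes by group, with 1 point per library and a bar at the mean. NOG, which reached at most 0.634 FPKM in a library, is left out. ID3 is the highest gene in the control group, and the highest ligand at 3 hours is BMP4.

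Markers of some other cell types moved with the time after surgery. The summed level of 5 neutrophil markers was 2.85 to 67.8 CPM in control libraries, 861 to 2301 CPM at 3 hours, 221 to 592 CPM at 3 days, and 2.76 to 2036 CPM at 14 days, where TL14d replicate 1 was the lowest. The highest sum at 14 days, in replicate 2, was almost all MMP9, which reached 1992 CPM. The other neutrophil markers (CSF3R, CXCR2, S100A8, and S100A9) reached at most 24.6 CPM in a TL14d library (S100A8). The 5 monocyte and macrophage markers summed to 68.1 to 602 CPM in control libraries, 637 to 973 CPM at 3 hours, 1245 to 2003 CPM at 3 days, and 89.3 to 409 CPM at 14 days. The 5 markers of blood endothelium, a cell type in which ID1 is known to respond to BMP signals, summed to 63.7 to 275 CPM, 606 to 1211 CPM, 294 to 549 CPM, and 88.8 to 282 CPM in the same order of groups. Of 3 goblet cell markers 1, SPDEF, was in the table, at 8.66 to 14.75 CPM, 5.435 to 18.95 CPM, 2.77 to 3.955 CPM, and 1.77 to 21.2 CPM in the same order of groups. At 3 days it lay below all control libraries and was not past the threshold (log2 fold change -1.925, q = 0.0893). For the 5 of 7 epithelial markers in the table the sums were 3876 to 8180 CPM, 4005 to 6550 CPM, 6091 to 16170 CPM, and 8297 to 12480 CPM. At 3 hours, as for ID1, ID2, and BMP2, each TL3h library lay above each control library in the sums of the neutrophil, monocyte and macrophage, endothelial, and fibroblast markers. The endothelial sum was carried by PECAM1 (716 ± 257 CPM at 3 hours, SD, n = 3), which rose together with CDH5 (log2 fold change 2.46, q = 0.0401), while the other 3 of its 5 markers overlapped with the control group at that time, VWF (0.87), TEK (-0.35), and KDR (-0.82). Epithelial markers, the defining markers of conjunctiva, were present in all 12 libraries, and no marker in these lists had a count of 0 throughout a group. Single fibroblast markers did not pass the threshold at 3 hours (0 of 5, from 0.07 for PDGFRA to 1.498 for COL3A1 on the log2 scale), 2 of 5 monocyte and macrophage markers did (CD14 and CD68), and all 5 neutrophil markers did. Of all genes tested, 23.2% were past it and higher at that time, and 28.9% had each TL3h library above each control library. The sums of the 3 T cell markers overlapped between all groups (4.43 to 14.2 CPM), as did those of pericytes and smooth muscle (59.2 to 805 CPM). Of the single T cell markers, 1 of 3 was past the threshold at 3 hours, CD3D, which was lower (log2 fold change -1.38, q = 0.0478) though its groups overlapped. Of the epithelial markers, 1 of 5 was past it at that time, EPCAM, which was higher (0.997, q = 0.000884). The sums of the 3 Schwann cell markers overlapped with the control group (3.71 to 12.2 CPM) except at 3 days, when they were lower in each library (0.275 to 3.44 CPM). The 2 skeletal muscle markers in the table summed to 155 CPM in control replicate 2 and 253 CPM in TL3d replicate 3, and to 0 to 6.42 CPM in the other libraries. The part of these markers in the results was not tested.

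Of the other genes of the pathway, 57 were listed, 51 were in the table, and 40 passed the count filter. At 3 hours 4 of the 40 rose and 6 fell, at 3 days 4 rose and 3 fell, and at 14 days 0 were past the threshold, against the shares of all genes given above. For the 40 genes the median log2 fold change was 0.34, then 0.13, then 0.17. Among the other BMP and GDF ligands, 1 of 5 genes tested fell at 3 hours and at 3 days and none rose. This was BMP3, a ligand that is known to antagonize other BMPs, which had 269 ± 79.0 CPM in the control libraries, 38.7 ± 14.7 CPM at 3 hours (SD, n = 3 each, log2 fold change -2.80, q = 0.000663), and 54.8 ± 23.4 CPM at 3 days (log2 fold change -2.30, q = 0.0132). At 3 days q was 0.0512 without TL3d replicate 1 and 0.0559 without TL3d replicate 2 (2.71e-06 to 0.0559 across the alternatives).

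Of 10 receptors and co-receptors tested, 3 fell and none rose at 3 hours, against 22.2% and 23.2% of all genes. The type 2 receptor gene ACVR2B went from 6.68 ± 1.72 to 1.58 ± 0.137 CPM (SD, n = 3 each, log2 fold change -2.08, q = 0.000128), and the co-receptor gene RGMA from 21.2 ± 7.35 to 5.10 ± 1.48 CPM (log2 fold change -2.05, q = 0.00176). Both calls held without any 1 library. The third was ACVR2A, another type 2 receptor gene, with a log2 fold change of -0.80 (q = 0.0313, and up to 0.089, without control replicate 1, in the 4 fits without 1 library that ended the call). At 3 days, 2 receptor genes rose and 1 fell. ACVRL1 and ENG, a type 1 receptor gene and a co-receptor gene of endothelium, had log2 fold changes of 2.10 (q = 0.0405) and 1.84 (q = 0.0421), and ACVR2A one of -0.92 (q = 0.0408). These 3 calls were lost in 8, 7, and 8 of the 12 fits without 1 library, with a highest q of 0.108 without control replicate 1, 0.117 without control replicate 2, and 0.127 without TL3d replicate 1.

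Of the 4 SMAD signal transducers, 1 passed the threshold at 3 hours and none at 3 days. For this list and the next lists, the share of all genes past the threshold was 45.4% at 3 hours (23.2% higher). It was 17.6% at 3 days (10.6% higher). SMAD4 had a log2 fold change of 0.38 (q = 0.0219), and -0.12 with library size only. Among 8 other secreted antagonists and modulators tested, none passed at 3 hours and 1, CHRD, which encodes the BMP antagonist chordin, rose at 3 days, from 3.63 ± 2.14 CPM to 28.9 ± 7.10 CPM (SD, n = 3 each, log2 fold change 2.99, q = 0.0321). The call for CHRD was lost in 5 of the 12 fits without 1 library (highest q 0.107, without control replicate 2), and that for SMAD4 also in 5 (highest q 0.136, without TL3h replicate 3). Of 5 intracellular and membrane inhibitors, 2 rose at 3 hours and 1 at 3 days. SMAD7, an inhibitory SMAD that is induced by TGF-beta and BMP signals, went from 6.54 ± 2.22 to 23.8 ± 8.99 CPM at 3 hours (log2 fold change 1.86, q = 0.0337). The ubiquitin ligase genes SMURF2 at 3 hours (log2 fold change 0.43, q = 0.0401, and -0.07 with library size only) and SMURF1 at 3 days (0.92, q = 0.0497) were the others. Calls were lost in 5 fits for SMAD7 (highest q 0.104, without TL3h replicate 3), 8 for SMURF2 (highest q 0.258, without TL3h replicate 3), and 8 for SMURF1 (highest q 0.166, without TL3d replicate 2).

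Of 6 other BMP target genes tested, 1 rose and 1 fell at 3 hours, and 1 fell at 3 days. MSX2, a homeobox gene that BMPs are known to induce, rose from 1.04 ± 0.836 to 13.1 ± 8.73 CPM at 3 hours (SD, n = 3 each, log2 fold change 3.65, q = 0.0047). HEY1, a repressor that acts downstream of Notch and BMP signals, fell from 51.5 ± 23.8 to 21.0 ± 4.36 CPM at 3 hours (log2 fold change -1.30, q = 0.00879) and to 14.96 ± 3.16 CPM at 3 days (log2 fold change -1.78, q = 0.0132, and 0.0512 without TL3d replicate 1). Of the 2 E protein genes tested, which encode partners that ID proteins bind, TCF12 fell from 110 ± 11.5 to 55.4 ± 10.8 CPM at 3 hours (SD, n = 3 each, log2 fold change -0.99, q = 0.00408). TCF4, the other E protein gene, was not past the threshold at 3 hours or 3 days. Changes of MSX2, HEY1, and TCF12 at 3 hours held without any 1 library (highest q 0.0337). So ID1, ID2, and MSX2 were higher and HEY1 lower at the same time, and ID3 was not past the threshold.

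Between 3 hours and 3 days, 6 of the 40 other pathway genes rose and 6 fell, against 18.4% and 19.0% of all genes tested. Of the 10 named above for their change at 3 hours, 5 were among them. ACVR2B (log2 difference 1.76, q = 0.000374), RGMA (1.39, q = 0.0153), and TCF12 (1.22, q = 0.00176), which had been lower than in the control group at 3 hours, rose from 3 hours to 3 days. MSX2 (-2.79, q = 0.0183) and SMAD4 (-0.41, q = 0.0203), which had been higher with TMM, fell. The changes of SMAD4 were small beside the effect of the scaling. With library size only, its log2 fold change at 3 hours was -0.12. That scale moved the median of all genes between 3 hours and 3 days from -0.05 to 0.43.

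At 14 days, the 3 genes of these lists with the smallest p-values were BAMBI, GDF7, and CHRD, none of them past the threshold. BAMBI, which encodes a pseudoreceptor that blocks TGF-beta family signals, had 0.926, 1.201, and 1.48 CPM in the control libraries. At 14 days its replicates 1, 2, and 3 had 0.740, 74.2, and 30.4 CPM, which is 4.87 higher on the log2 scale in the fit (standard error 1.15, q = 0.346). Replicate 1 lay below the control libraries and the others far above them. Without TL14d replicate 1, q was 0.00207. GDF7, a ligand, was at 0.0949, 0.175, and 0.702 CPM in the control libraries and at 0.975, 5.13, and 20.4 CPM at 14 days (log2 fold change 4.76, q = 0.36, and 0.0064 with DESeq2). CHRD was at 2.39, 22.1, and 32.2 CPM at 14 days (log2 fold change 2.38, q = 0.388, and 0.0199 without TL14d replicate 1).

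**Figure D5:**
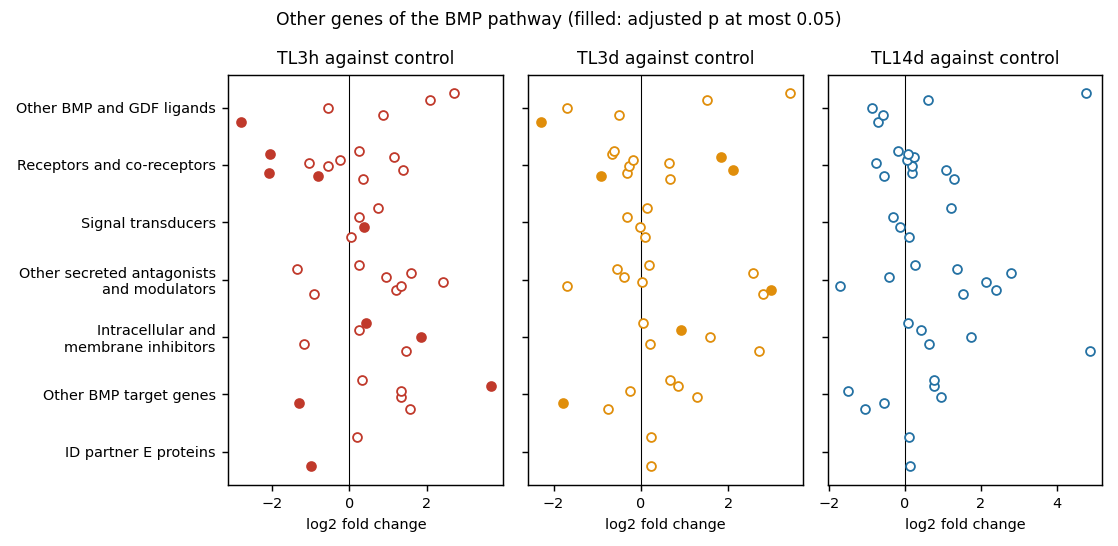
log2 fold change of the 40 other pathway genes tested, by list (rows) and time point (panels), with 1 point per gene. Filled points had q of at most 0.05, which holds for 10 genes after 3 hours, 7 after 3 days, and 0 after 14 days.

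The genes with the most similar pattern were found by the root mean square difference of log2 CPM, each centred on its own mean over the 12 libraries, among the 13253 genes that averaged at least 1 CPM (less the gene itself). For BMP7 the nearest gene was LOC100008826, another row annotated as BMP7, at 0.22 on the log2 scale, followed by LOC103349477 (0.23), while BMP7 itself varied with a root mean square of 0.55. CAPN2 (0.23) and TES (0.26) were nearest to BMP2, whose own variation was 0.86. RARRES2 (0.36) and LOC103346304 (0.44) were nearest to BMP4 (own variation 1.42), and TCF7L1 (0.38) and SSBP3 (0.38) to BMP6 (1.11). For the antagonists, CTGF (0.62) and COL9A2 (0.77) were nearest to GREM1 (own variation 1.29), and ENOX1 (0.47) and TPM1 (0.48) to NOG (1.29). ACTB (0.34) and KLF10 (0.35) were nearest to ID1 (own variation 0.99), SLX4 (0.17) and EXOSC3 (0.18) to ID2 (0.71), and TMED3 (0.24) and TMEM258 (0.24) to ID3 (0.42). Among the 9 genes themselves, BMP2 and ID1 were the closest pair (0.48), followed by ID1 and ID2 (0.54) and by BMP2 and ID2 (0.56), and BMP4 and NOG were farthest apart (2.42). These are descriptions over 12 libraries that share the time after surgery.

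The transcript table held 1 transcript for each of the 9 genes. Tested over 26082 transcripts, 4 of the 9 were past the threshold at 3 hours, against 28.3% of all transcripts tested, 2 at 3 days against 5.13%, and 0 at 14 days against 0%. Between 3 hours and 3 days 3 of the 9 were past it, against 21.4%, and between 3 days and 14 days 0, against 0.123%. The transcripts of BMP7 at 3 hours (q = 0.0628), of ID2 at 3 days (q = 0.0626), and of ID1 between these times (q = 0.0563) were those past the threshold in the gene table and not in the transcript table.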

How the data were processed

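RNA of 12 conjunctival libraries had been sequenced as stranded mRNA libraries. The authors mapped the reads to OryCun2.0 with STAR 2.6.0c and made values with GeneData Profiler Genome. The authors deposited estimated counts per gene and per transcript, which are not scaled to library size and of which 23.4% per gene were fractions, and FPKM values. Columns were assigned to samples by the library number in the labels.

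Estimated counts were rounded. In edgeR 4.0.16 under R 4.3.3, genes were filtered by filterByExpr (minimum count 10, minimum total 15) and scaled by TMM, and 1 quasi-likelihood fit without covariates gave log2 fold changes (prior count 0.125), standard errors from the test statistic, and Benjamini-Hochberg adjusted p-values over 14835 genes. Alternatives were DESeq2 1.42.0 size factors and its own test, library size only, limma-trend (limma 3.58.1, prior count 2), no filter, a minimum count of 50, the 6 libraries compared, a replicate block, and leaving out each library. All 9 genes were named, with pathway genes past the threshold (at most 12 per comparison with the control group, or the 3 with the lowest p) and the 2 nearest genes in pattern. In all, 57 pathway genes were listed. The genes and lists were chosen with earlier results of these data known. Summed rows and the omission of 2 libraries together were chosen after the data were seen. The scripts were tested on simulated data. The lowest ratio of squared difference to counting variance between 2 libraries of a group was 75.8 (copies give about 1).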

Additional observations from a re-analysis of the deposited data

Results flagged for a closer look

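For 4 of the 9 genes, the effects at 3 days and at 3 hours against the same control libraries differed in the edgeR test of the difference itself, as they did for 37.3% of all genes tested. The log2 difference, TL3d against TL3h, was -3.21 for BMP4 (2.96 ± 0.914 CPM against 27.5 ± 9.23 CPM), 2.22 for BMP6 (13.8 ± 5.11 CPM against 2.94 ± 0.706 CPM), -0.92 for ID1 (48.6 ± 19.6 CPM against 91.8 ± 17.1 CPM), and -1.11 for ID2 (18.1 ± 2.07 CPM against 38.99 ± 4.08 CPM; SD, n = 3 each). All 3 libraries of each group lay on 1 side of those of the other. Groups of 3 libraries were not searched for single outlying values. The call for ID1 was lost in 4 of the 12 fits without 1 library (highest q 0.112, without TL3d replicate 2) and with library size only (q = 0.275).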

How the results depend on the processing

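Of 1676 values of single genes under an alternative, 1490 kept their direction and their side of the threshold, 137 lost it, 30 gained it, and 19 changed sign. The number of the 9 genes past the threshold went from 0 to 2 with the DESeq2 test at 14 days (2.49% of all genes) and from 0 to 1 between 3 days and 14 days (12.5%). It was 2 at 14 days without control replicate 3 and TL14d replicate 1 together (6.64%). Without 1 library each, it ranged from 1 to 5 at 3 days (2.37% to 25% of all genes) and from 0 to 2 at 14 days (0% to 4.74%). When the 3 time points were tested as 1, it ranged from 4 to 8 in these fits (41.2% to 56.5% of all genes). That joint test gave 7 with all libraries (52.4%) and 6 with the replicate block (53.0%). The lowest value at 3 days, 1, was found without control replicate 2, TL3d replicate 1, or TL3d replicate 2, and the highest, 5, without TL14d replicate 1.

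With library size only, the log2 fold change at 3 hours changed sign for ID3 (-0.000541), SMAD4 (-0.12), and SMURF2 (-0.072). Without 1 library each, it ranged from -0.34 to 0.34 for BMP6 at 3 days and from -0.30 to 0.22 for LOC100008826 at 14 days. Between 3 hours and 3 days it ranged from -0.22 to 0.26 for ID3, and between 3 days and 14 days from -0.38 to 0.21 for ID1, from -0.40 to 0.26 for BMP2, and from -0.28 to 0.24 for ID3. Without control replicate 3 and TL14d replicate 1 together, the last comparison gave 0.0414 for ID1 and 0.26 for BMP2. None of these values was past the threshold, and the cause was not tested.

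With the replicate block, 4 of the 9 genes were past the threshold at 3 hours, 3 at 3 days, and 0 at 14 days, against 46.8%, 18.3%, and 0% of all genes, and the log2 fold change of BMP6 at 3 days was 0.01045. Deviations of libraries with the same number had correlations from -0.15 to 0.52 over 18 pairs, and 7 of 12 libraries were closest to their own number. These values cannot decide on pairing, since libraries can share a number and be closest without being paired. The numbers were not taken to pair the samples because the labels and the study's methods state no pairing. The joint test of the 3 time points could not be run on 6 libraries.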

Other observations

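The ligand gene BMP10 had counts of 8, 14, and 3 in the TL3d libraries and of 0 in each of the other libraries, too few to be tested. It was named after its values were seen.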
